A study of Mus musculus with 6 samples.

Results

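Genes that mark interstitial progenitor cells and peritubular myoid cells were examined in fetal testes that lack Dmrt1. The set comprised 9 genes of the 18194 gene symbols on the array: Nr2f2, Tcf21, Pdgfra, Pdgfrb, Acta2, Myh11, Tagln, Cnn1 and Des. A probe set was taken when the platform annotation gave it exactly 1 of these symbols, which yielded 22 probe sets. The 3 null samples were testes of embryos at E13.5 given as Dmrt1(-,-) or (-/-) in the titles, descriptions and design text, although the genotype field lists them as Dmrt(flox/flox). The 3 controls were testes of the same age that are called wild type in the titles and heterozygous for Dmrt1 in the descriptions, genotype entries and design text. Both groups were outcrossed to the 129S6/SvEvTac mouse strain, in which the mutants often develop teratomas. No Cre driver is named in the labels, and whether RNA came from 1 embryo or several is not stated in these sources. The replicates are labelled as biological, and the p-values below measure the spread between these samples.

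In the fetal testis, Sertoli cells enclose the germ cells in cords, and the space between cords holds the interstitium. Mesenchymal progenitors of this compartment give rise to steroid-producing Leydig cells, and flattened peritubular myoid cells line the cords, lay down part of their basement membrane and later contract. Sertoli cells signal to these cells through platelet-derived growth factor and Desert hedgehog. Dmrt1, a DM domain transcription factor, is made in Sertoli and germ cells, and the 9 genes are known mainly from the cells around them.

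The contractile genes of smooth muscle are textbook targets of serum response factor, which binds a short element called the CArG box. The promoter of Acta2 is printed because Acta2 was the bright contractile gene with a promoter in the RefSeq table, and those of Cnn1 and Des because they are the other contractile members in that table. Each window runs 5′ to 3′ on the strand of the gene, from 250 bases before the annotated start to 50 bases after it, in build GRCm38.p6. Capitals mark CArG boxes in which 1 of the 6 core bases is neither A nor T.
Acta2, chr19:34255324-34255623, minus strand: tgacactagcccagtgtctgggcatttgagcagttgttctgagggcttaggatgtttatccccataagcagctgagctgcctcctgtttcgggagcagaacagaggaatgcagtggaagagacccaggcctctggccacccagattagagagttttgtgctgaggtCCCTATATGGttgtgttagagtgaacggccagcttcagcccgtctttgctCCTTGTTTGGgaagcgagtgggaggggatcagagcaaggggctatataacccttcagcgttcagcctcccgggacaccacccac
Cnn1, chr9:22099003-22099302, plus strand: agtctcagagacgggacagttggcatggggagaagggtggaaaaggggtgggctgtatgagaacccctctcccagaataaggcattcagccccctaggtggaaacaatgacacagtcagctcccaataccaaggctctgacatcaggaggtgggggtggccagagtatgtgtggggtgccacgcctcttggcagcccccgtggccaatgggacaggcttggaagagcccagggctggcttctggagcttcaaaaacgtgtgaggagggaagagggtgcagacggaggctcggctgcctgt
Des, chr1:75360042-75360341, plus strand: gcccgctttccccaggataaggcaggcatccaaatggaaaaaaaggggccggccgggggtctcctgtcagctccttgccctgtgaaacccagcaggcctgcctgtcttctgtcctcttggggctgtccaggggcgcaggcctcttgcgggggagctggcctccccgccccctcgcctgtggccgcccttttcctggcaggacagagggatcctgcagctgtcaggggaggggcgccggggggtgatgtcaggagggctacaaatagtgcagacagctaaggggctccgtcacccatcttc

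The Acta2 window held 2 such elements, CCCTATATGG starting 84 bases before the transcript start and CCTTGTTTGG starting 34 bases before it. Neither the exact CArG box nor the form with 1 other base was found in the windows of 5 other members, Nr2f2, Tcf21, Pdgfra, Cnn1 and Des. Of 32851 promoter windows of the same length, 1.63% held the exact box, 8.50% the form with 1 other core base, and 0.822% at least 2 matches to either form. The E-box CANNTG, the kind of element that factors of the Tcf21 family bind, occurred 3 times in the Acta2 window, 2 times each in those of Nr2f2, Pdgfra and Des, once in that of Cnn1 and not in that of Tcf21, and 72.31% of all windows held it. Both motifs read the same on either strand. These matches describe the letters of the windows and are not binding data.

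Intensities were on a linear scale, and the median over the probe sets of an array was 14.6 to 14.8. The Dmrt1 probe set followed the labels, with intensities of 23.8 to 48.4 in null testes and 696 to 1030 in control testes. Of 22082 probe sets tested with limma, 6 were called at a Benjamini-Hochberg adjusted p of 0.05, which is 0.0272%, and all 6 fell in the null. Null replicate 1 and control replicate 2 stood apart from the other 4 arrays in markers of vessels. The median log2 level of 10 endothelial markers, relative to the mean of the 6 arrays, was -0.51, 0.25 and 0.52 in null replicates 1, 2 and 3 and 0.36, -1.14 and 0.31 in control replicates 1, 2 and 3. The median of 4 fetal Leydig markers was 1.26, -0.65 and -1.40 in null replicates 1, 2 and 3 and -0.75, 0.76 and 0.78 in control replicates 1, 2 and 3. Null replicate 3 had the highest 3′ to 5′ ratio of the Actb controls, 2.75, while the ratio of the remaining arrays was between 1.91 and 2.15.

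The interstitial progenitor genes were bright and nearly equal in null and control testes. Among the contractile genes, Acta2 and Tagln varied between arrays in both groups, and the probe sets of Myh11, Cnn1 and Des, which also mark smooth muscle, were dim. Intensities of different probe sets do not rank genes by level. None of the 9 genes was called. Of the 22 probe sets, 16, from 8 genes, passed the filter of a mean log2 intensity of at least 4, and 0 of the 16 were called, beside 0.0272% of all probe sets tested. At an unadjusted p under 0.05, limma also gave 0 of the 16, beside 6.04% of all probe sets. Null and control values overlapped at all 16, whereas the groups did not overlap at 12.8% of all probe sets. Differences of null minus control were above 0 at 9 and below 0 at 7 probe sets, between -0.23 and 0.29 on the log2 scale, with limma adjusted p of 0.816 to 0.992. The median over the 8 genes tested, each at its brightest probe set, was 0.01, as it was over all 22082 probe sets. The standard errors of the 16 had a median of 0.19, against 0.15 over all probe sets tested.

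**Figure D1:**
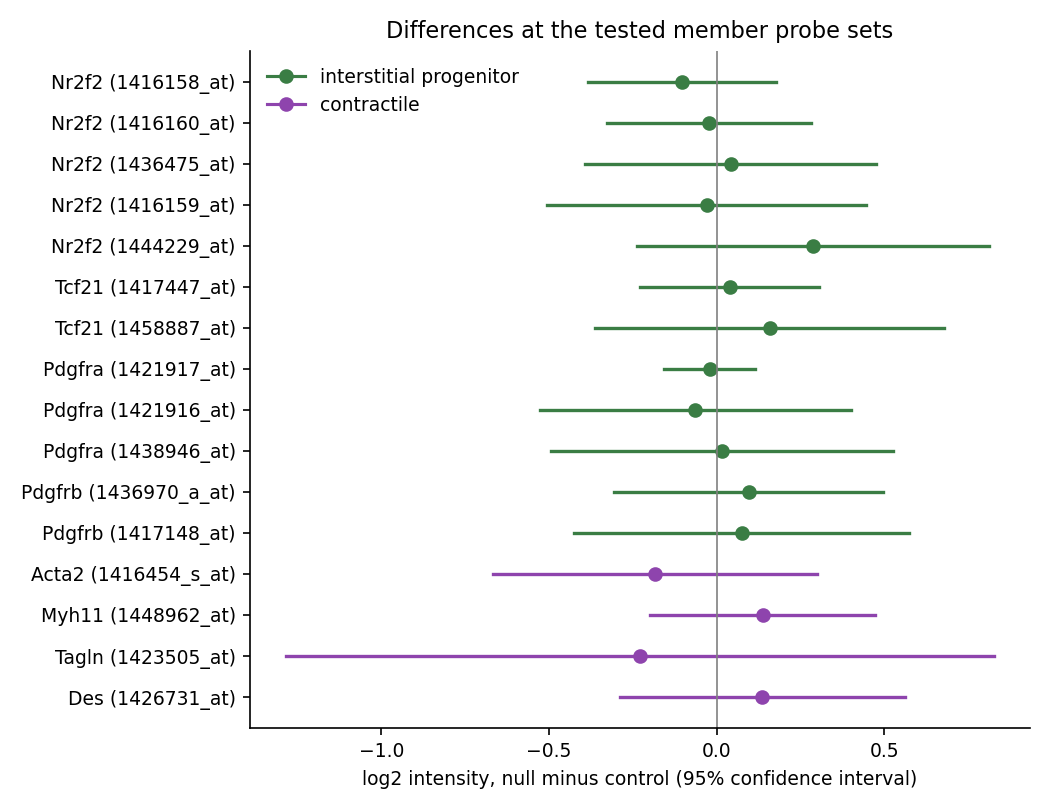
Log2 intensity of null minus control testes at the 16 tested probe sets (x axis), with the limma estimate as a point and its 95% confidence interval as a line, n = 3 arrays per group. Every interval includes 0, the narrowest is that of the bright Pdgfra probe set and the widest that of Tagln.

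Nr2f2 encodes COUP-TFII, a nuclear receptor of interstitial cells that do not make steroids. Its brightest probe set gave 2970, 3430 and 3960 in null replicates 1, 2 and 3 and 3960, 3200 and 3940 in control replicates 1, 2 and 3. The highest null value equalled the highest control value, and null replicate 1 was the lowest of all. Means were 3453 ± 495 in null and 3700 ± 433 in control testes (SD, n = 3 each), and the log2 difference was -0.10 with a limma standard error of 0.12 and a 95% confidence interval of -0.38 to 0.18 (limma adjusted p = 0.873). Another 3 bright or moderate Nr2f2 probe sets differed by -0.02, 0.04 and -0.03, each with an interval that includes 0. A dim probe set of Nr2f2, at 14.3 to 26.3, had the largest member difference, 0.29 with an interval of -0.24 to 0.81. The remaining probe set, at 6.81 to 12.2, lay below the filter and was not tested.

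The transcription factor Tcf21, a basic helix-loop-helix protein of mesenchymal progenitors in the gonad, gave 3630, 3260 and 3110 in null replicates 1, 2 and 3 and 2850, 3860 and 3090 in control replicates 1, 2 and 3. The null values all lay within the range of the controls, whose highest value was in replicate 2 and lowest in replicate 1. The log2 difference was 0.04 with a limma standard error of 0.12 (95% confidence interval -0.23 to 0.30), so fold changes outside 0.854 to 1.24 of null over control lie outside the interval. A second, dim Tcf21 probe set at 13.8 to 24.2 differed by 0.16 (interval -0.36 to 0.68) and was again highest in control replicate 2, then null replicate 1, and lowest in control replicate 1.

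Pdgfra, the receptor through which platelet-derived growth factor A from Sertoli cells reaches the interstitium, was even across arrays at its bright probe set. It gave 4480, 4800 and 4950 in null replicates 1, 2 and 3 and 4970, 4550 and 4920 in control replicates 1, 2 and 3. The highest of the 6 arrays was 1.11-fold above the lowest. Its log2 difference was -0.02 with a limma standard error of 0.06 (adjusted p = 0.947), and the 95% confidence interval spans 0.897 to 1.08 as a fold of null over control. The other Pdgfra probe sets, dimmer at 84.5 to 162, differed by -0.06 and 0.02 with standard errors of 0.20 and 0.22, and did not share the array order of the bright probe set. Pdgfra was therefore measured far more tightly by one of its probe sets than by the rest.

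Pdgfrb, the related receptor carried by pericytes and interstitial mesenchyme, had 1 low array. Its brighter probe set gave 2470, 2630 and 3030 in null replicates 1, 2 and 3 and 3010, 1880 and 2850 in control replicates 1, 2 and 3, and its other gave 1100, 1300 and 1440 in the null and 1430, 840 and 1470 in the control replicates. Control replicate 2 was lowest and null replicate 1 next lowest in both, as in the endothelial markers. The log2 differences were 0.10 and 0.07, with limma standard errors of 0.17 and 0.22 and 95% confidence intervals of -0.30 to 0.50 and -0.43 to 0.57. Without control replicate 2 they were -0.12 and -0.19, and without null replicate 3 they were 0.01 and -0.02.

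The part that vessels play in the Pdgfrb values was not tested. Of the 7 pericyte markers tested, Rgs5, a regulator of G protein signalling, gave 636, 764 and 874 in null replicates 1, 2 and 3 and 742, 343 and 1050 in control replicates 1, 2 and 3, with its lowest value in control replicate 2 as well. The list as a whole was not lowest there, with medians of 0.12, -0.16 and 0.06 in null replicates 1, 2 and 3 and -0.18, -0.13 and 0.36 in control replicates 1, 2 and 3. In whole testes, fewer cells of a type and less RNA per cell cannot be told apart.

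**Figure D2:**
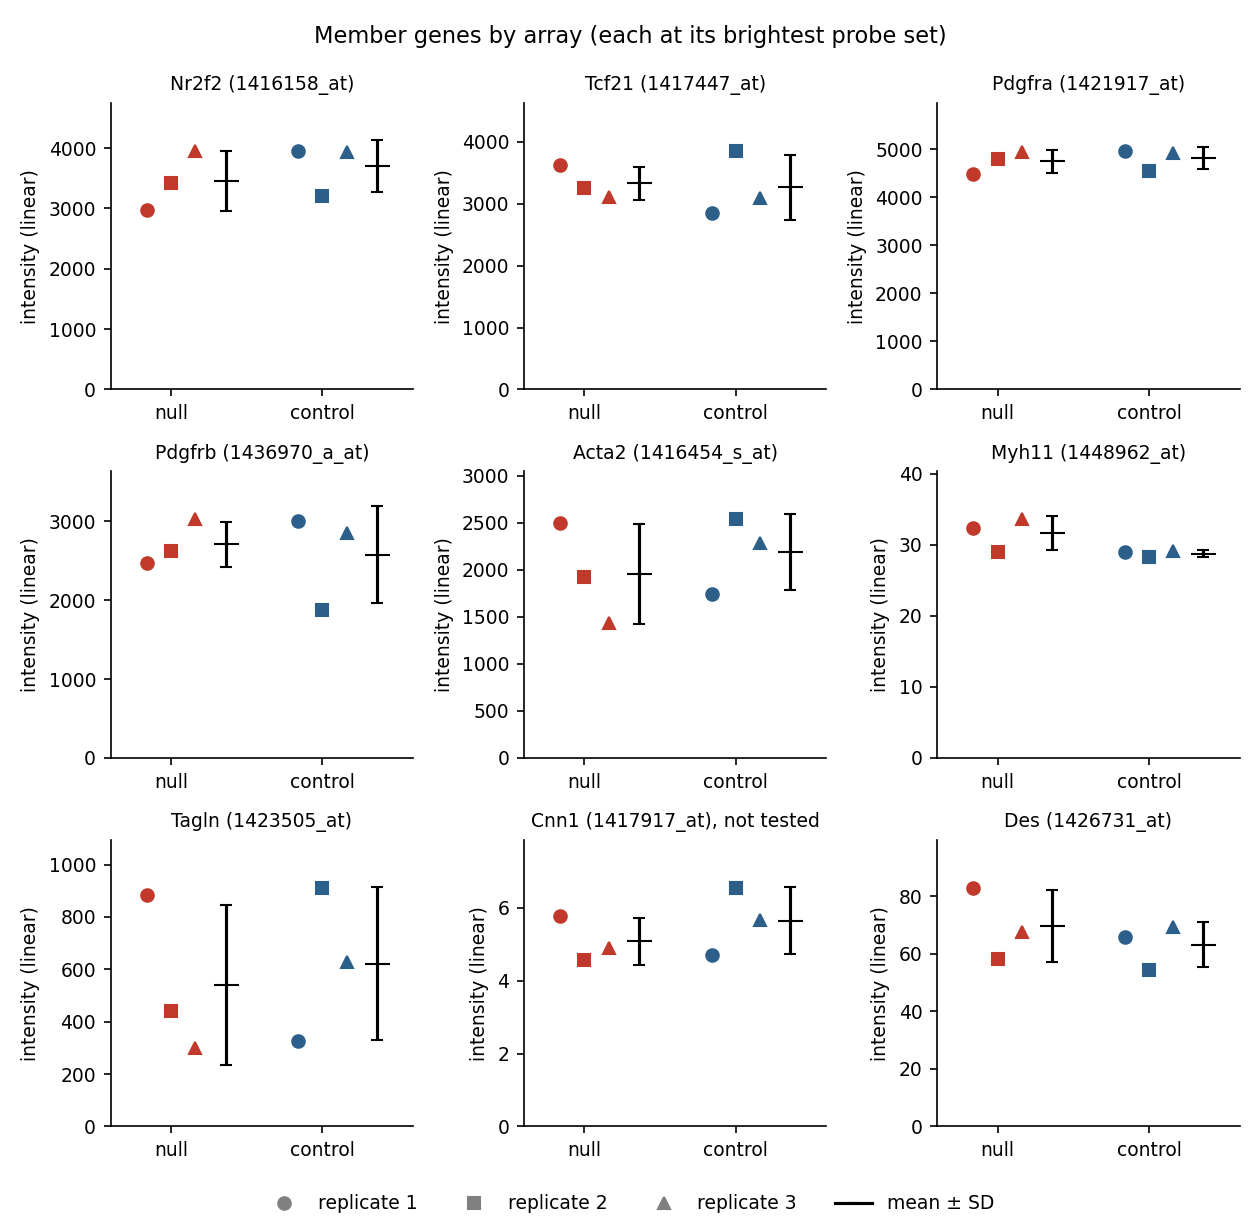
Intensity on a linear scale (y axis, from 0) of the 9 genes in null and control testes, each at its brightest probe set. Symbols mark replicates 1 to 3, and bars the mean ± SD of 3 arrays. Groups overlap in every panel, and Tagln shows the widest scatter as a fold, from 299 to 912.

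Among the contractile members, Acta2 encodes the alpha actin of smooth muscle, the usual label of peritubular myoid cells. Its bright probe set gave 2500, 1920 and 1440 in null replicates 1, 2 and 3 and 1740, 2540 and 2290 in control replicates 1, 2 and 3. High and low arrays occurred in both groups. The means were 1953 ± 531 in null and 2190 ± 409 in control testes (SD, n = 3 each), and the log2 difference was -0.18 with a limma standard error of 0.21 (95% confidence interval -0.67 to 0.30, adjusted p = 0.868). Without null replicate 1 it was -0.38, and without null replicate 3 it was 0.02. By its suffix this probe set may also detect transcripts of related genes; the probe set of Actg2, the gamma actin of smooth muscle, read 10.9 to 16.2. Acta2 had 2 further probe sets, at 2.92 to 5.20, which were not tested.

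Tagln, which encodes the actin-binding protein transgelin of smooth muscle, scattered the most of the members. It gave 882, 440 and 299 in null replicates 1, 2 and 3 and 327, 912 and 626 in control replicates 1, 2 and 3. Its highest array was 3.05-fold above its lowest, and the ranges of both groups were nearly the same. The log2 difference was -0.23 with a limma standard error of 0.46 (adjusted p = 0.923), and the 95% confidence interval spans 0.410 to 1.77 as a fold of null over control. That span holds the folds of Tagln that remain compatible with 3 arrays per group, and it is not a limit of detection. The difference was -0.66 without null replicate 1 and -0.63 without control replicate 1, but 0.12 without null replicate 3 and 0.11 without control replicate 2. The spread of Tagln within the groups was at percentile 98.6 among all tested probe sets, and that of the bright Pdgfra probe set at percentile 9.05.

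Acta2 and Tagln had the same order of arrays from high to low: control replicate 2, null replicate 1, control replicate 3, null replicate 2, control replicate 1 and null replicate 3. That order alternates between the genotypes. Of 11874 genes at their brightest tested probe set, 74 had it, or 0.623%. Chosen after its values were seen, Myocd was among them. It encodes myocardin, the coactivator of serum response factor in smooth muscle, and gave 489, 406 and 291 in null replicates 1, 2 and 3 and 364, 755 and 438 in control replicates 1, 2 and 3. Its log2 difference was -0.35 with a limma standard error of 0.29 (adjusted p = 0.821). The germ cell gene Mael also had this order, with 1210, 836 and 651 in the null and 692, 1930 and 963 in the control replicates 1, 2 and 3.

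The arrays with the 3 highest Tagln values, control replicates 2 and 3 and null replicate 1, were also those with the 3 highest values of the Leydig markers. The median of 5 germ cell markers was also highest on these arrays, at 0.15 in null replicate 1 and 0.41 and 0.0036 in control replicates 2 and 3. The steroidogenic enzyme Cyp11a1 gave 2600, 357 and 215 in null replicates 1, 2 and 3 and 364, 1890 and 2050 in control replicates 1, 2 and 3. Cyp17a1, another enzyme of androgen synthesis, gave 3110, 1070 and 546 in the null and 951, 2530 and 2760 in the control replicates 1, 2 and 3. All 4 Leydig markers tested, Cyp11a1, Cyp17a1, Hsd3b1 and Star, read at least 215 on every array. The part of Leydig cell content, of germ cell content and of RNA quality in the contractile values was not tested. Tagln and Acta2 were lowest in null replicate 3, where the 3′ to 5′ ratio was 2.75. They were next lowest in control replicate 1, where it was 1.98.

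**Figure D3:**
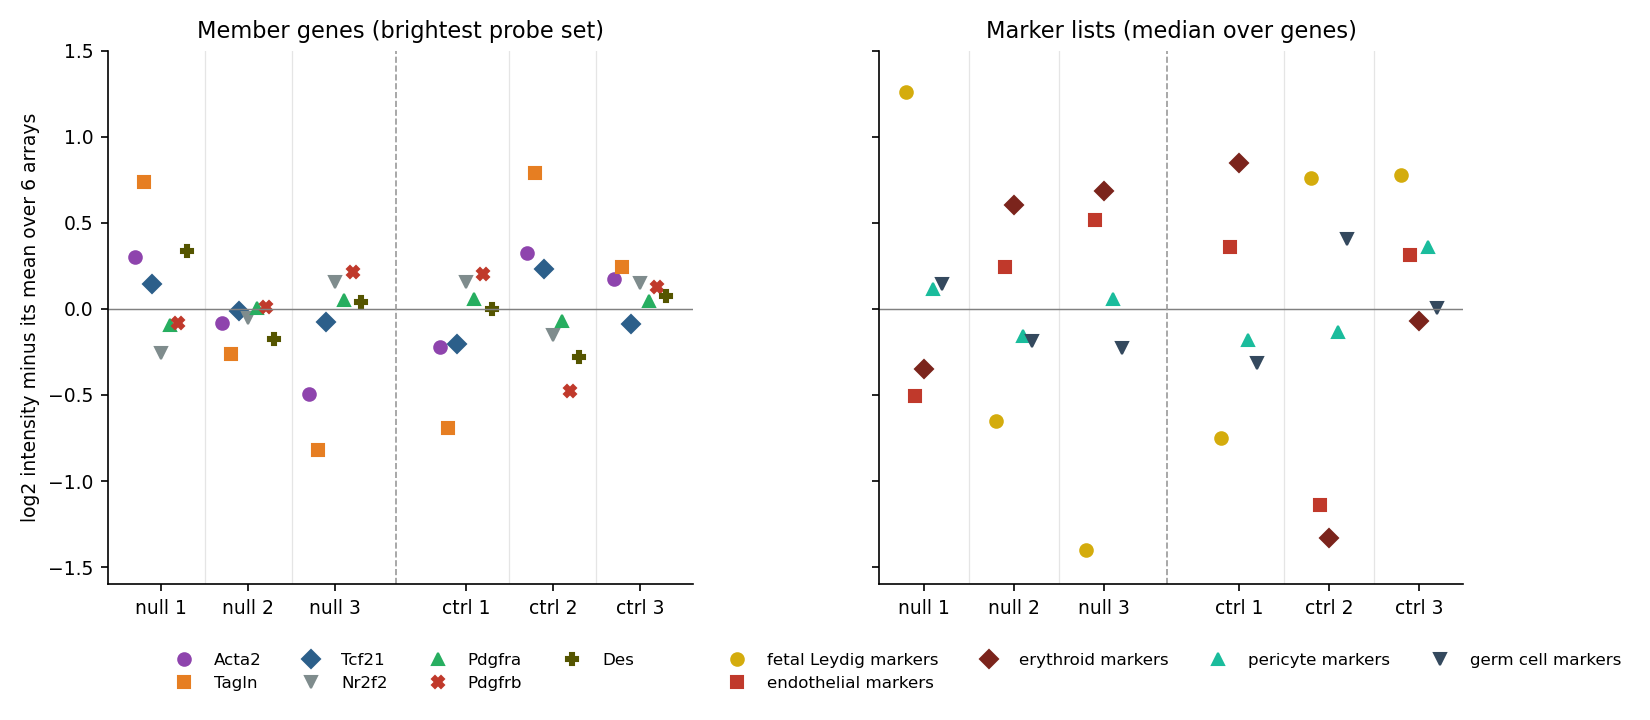
Log2 intensity minus its mean over the 6 arrays (y axis) for each array (x axis, null left and control right of the dashed line), for 7 member genes at their brightest probe sets and for the median over the genes of 5 marker lists. Tagln and Acta2 are high in null replicate 1 and control replicates 2 and 3, as are the fetal Leydig markers. The germ cell markers have the same 3 highest arrays. Pdgfrb is lowest in control replicate 2, as are the endothelial markers.

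The remaining contractile members were dim. Myh11, the smooth muscle myosin heavy chain, gave 32.4, 29.0 and 33.6 in null replicates 1, 2 and 3 and 28.9, 28.2 and 29.1 in control replicates 1, 2 and 3, a log2 difference of 0.14 with a limma standard error of 0.15 (adjusted p = 0.859). Its second probe set, at 4.85 to 5.93, was below the filter. Des, the intermediate filament desmin of muscle cells, gave 83.1, 58.4 and 67.7 in null replicates 1, 2 and 3 and 65.9, 54.3 and 69.3 in control replicates 1, 2 and 3. Its difference was 0.14 with a standard error of 0.18 (limma adjusted p = 0.890), and a second Des probe set read 2.72 to 2.98. Without null replicate 1 the Des difference was 0.0012, and without control replicate 2 it was 0.03.

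Cnn1, the calponin of smooth muscle, has 1 probe set and it was not tested. It read 5.78, 4.56 and 4.88 in null replicates 1, 2 and 3 and 4.71, 6.55 and 5.67 in control replicates 1, 2 and 3, below the median of every array. Values this low depend on the background correction. The Myh11 and Des probe sets that were tested read above the median of every array. Skeletal and cardiac muscle also express Acta2, Tagln or Des in the embryo. Of 8 of their markers 3 passed the filter, Myl4, Tnnt2 and Actc1, and the muscle regulators Myod1 and Myog read at most 8.75 and 12.2. Myl4, a myosin light chain of atrial and embryonic muscle, gave 45.3, 50.2 and 52.7 in null replicates 1, 2 and 3 and 43.8, 25.5 and 20.4 in control replicates 1, 2 and 3. Its null values all lay above its control values, at a difference of 0.80 with a limma standard error of 0.27 (adjusted p = 0.773). Actc1 and Tnnt2 differed by 0.02 and -0.05 with standard errors of 0.37 and 0.24, and their groups overlapped. The part of other muscle in the member values was not tested.

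The other genes of these pathways were read from 4 lists, with 42 genes tested. None was called, limma adjusted p was at least 0.773, and 16 were higher and 26 lower, with a median difference of -0.04 on the log2 scale. The groups did not overlap at 7 of the 42, or 16.7%, against 12.8% of all probe sets. At an unadjusted limma p under 0.05 there were 2 of the 42, Wnt5a and Tead1, which is no larger a share than the 6.04% of all probe sets.

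Serum response factor and its cofactors had 4 of 8 genes higher and 4 lower. Srf itself differed by 0.02 with a standard error of 0.18. Tead1, a transcription factor of the Hippo pathway that also acts on smooth muscle genes, gave 1230, 1420 and 1260 in null replicates 1, 2 and 3 and 1630, 1490 and 1580 in control replicates 1, 2 and 3. All null values lay below all control values, and the log2 difference was -0.27 with a limma standard error of 0.09 (adjusted p = 0.773). Mrtfb, a myocardin-related coactivator, differed by -0.17 with a standard error of 0.11, and by -0.05 without null replicate 1.

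In the wider contractile apparatus, 15 of 17 genes were tested, 6 higher and 9 lower, all between -0.14 and 0.20. Vinculin (Vcl), which anchors actin to adhesion sites, gave 4870, 5130 and 5090 in null replicates 1, 2 and 3 and 5990, 5350 and 5220 in control replicates 1, 2 and 3, a difference of -0.13 with a limma standard error of 0.06 (adjusted p = 0.773), and -0.07 without control replicate 1. Mylk, the myosin light chain kinase, differed by -0.12 with a standard error of 0.06. The groups of Mylk overlapped. In this list they did not overlap at Vcl, Tpm1 and Tagln2, the last 2 with differences of -0.08 and -0.10. Single genes of the list varied between arrays, as Myl9, a myosin light chain, which gave 1100, 856 and 692 in null replicates 1, 2 and 3 and 806, 991 and 917 in control replicates 1, 2 and 3. Its 3 highest arrays were the 3 highest of Acta2 and Tagln, and its difference was -0.06 with a standard error of 0.17. Myl9 was chosen after its values were seen. The median of the list, relative to the mean of the arrays, did not share those 3 highest arrays. It was -0.05 in null replicate 1 and -0.04 in control replicate 2.

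Ligands and adaptors of the platelet-derived growth factor receptors had 2 of 9 genes higher and 7 lower. Pdgfa, the ligand made by Sertoli cells, gave 1500, 1980 and 2050 in null replicates 1, 2 and 3 and 2150, 1900 and 1870 in control replicates 1, 2 and 3, a difference of -0.11 with a limma standard error of 0.13. Pdgfc, another ligand of Pdgfra, was at 4680, 4640 and 4410 in the null and 4370, 4390 and 4040 in the control replicates 1, 2 and 3. Its groups did not overlap, at a difference of 0.10 with a standard error of 0.05 (limma adjusted p = 0.774), and 0.06 without control replicate 3. The adaptor Shc1 differed by -0.17 with a standard error of 0.12.

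Among 10 tested regulators of the interstitium, 4 were higher and 6 lower. Wnt5a, a secreted ligand of mesenchyme, gave 1550, 1750 and 1210 in null replicates 1, 2 and 3 and 1940, 2210 and 1960 in control replicates 1, 2 and 3. Every null value was below every control value. The log2 difference was -0.45 with a limma standard error of 0.14 (adjusted p = 0.773), and leaving out 1 array at a time gave -0.57 to -0.30. Gli2, an effector of hedgehog signalling, gave 499, 469 and 517 in the null and 432, 408 and 466 in the control replicates 1, 2 and 3, a difference of 0.19 with a standard error of 0.11. The hedgehog receptor and target Ptch1 and the target Gli1 differed by -0.10 and 0.02, and the Sertoli ligand Dhh by 0.21 with a standard error of 0.17. Leaving out single arrays moved Dhh between 0.11 and 0.36. Nr2f1, the close relative of Nr2f2, differed by 0.20 with a standard error of 0.23, and was lowest, at 890, in control replicate 2.

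**Figure D4:**
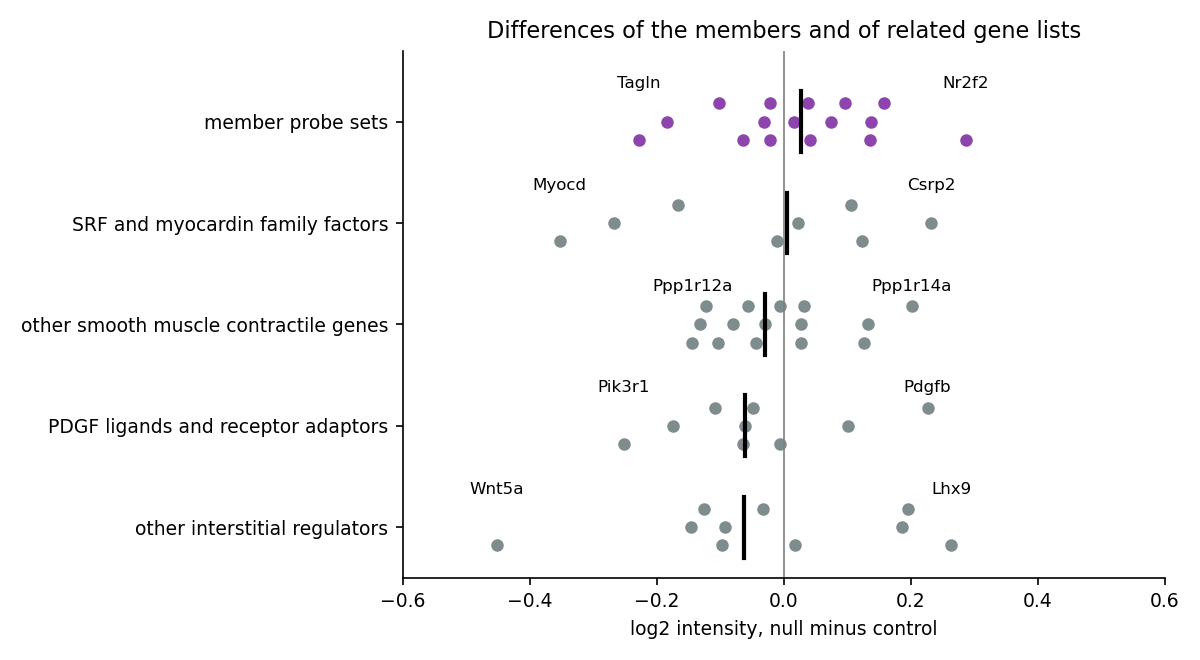
Log2 intensity of null minus control (x axis) for the 16 tested member probe sets and for the genes of 4 related lists at their brightest probe sets, 1 point each. Bars mark medians, and the lowest and highest point of each row are named. Points are spread vertically for legibility, and all medians lie within 0.1 of 0.

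The genes whose profile over the 6 arrays was nearest to the median profile of each member class were found among 9683 genes with a mean log2 intensity of at least 6. Members of a class did not all share that profile. Tcf21 was highest in control replicate 2, where Pdgfrb was lowest, and Myh11 was highest in null replicate 3, where Acta2 and Tagln were lowest. The Myh11 probe set was dim, however, and its highest array was only 1.19-fold above its lowest. Likeness was the root mean square difference between the centred log2 levels of a gene and the median profile of the class. Nearest to the interstitial progenitor profile were Pbx3, Sephs1, Atf7ip, Btg1 and Tbck, at differences of 0.023 to 0.030 over 6 arrays, where the profile itself has a root mean square of 0.09. Nearest to the contractile profile, which has a root mean square of 0.19, were Vps45, Ift57, Esr1, Chmp7 and Rbm38, at 0.043 to 0.056. Esr1, the estrogen receptor alpha, gave 831, 619 and 543 in null replicates 1, 2 and 3 and 638, 725 and 777 in control replicates 1, 2 and 3.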

How the data were processed

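Per the labels' protocols, 100 ng of RNA from E13.5 testes (Allprep Micro kit) was amplified and biotin-labelled with the NuGen Ovation kit. The authors deposited intensities on a linear scale, made with GCRMA per the submitters' processing notes. GCRMA corrects background and normalizes between arrays, so folds between dim values depend on it. Precision is limited by having 3 arrays in each group.

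Of 45101 probe sets, GEO's platform annotation gave 34958 exactly 1 gene symbol, 932 several and 9211 none. Of the first, 34754 matched a RefSeq gene (GRCm38.p6) by Entrez ID. The intensities were taken to log2. Probe sets with a mean of at least 4 were compared between groups, with no covariate, by limma 3.58.1 (R 4.3.3, eBayes with a trend on intensity). The two-sided p-values of the 22082 kept probe sets were adjusted together by Benjamini-Hochberg. Residual degrees of freedom were 4, and 7.91 with the shared prior. On simulated data with the spread of these 22082 probe sets, 100 were changed by a log2 of 1 and 100 by 2. There limma called 62% and 91% of them in turn, with 5 false calls. The adjusted p depends on how many probe sets change, and the data gave 6 calls. These shares are therefore not the power for the members, whose standard errors ran from 0.06 to 0.46. An exact permutation test of 3 against 3 cannot go below p = 0.1 and was not used.

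The members and lists were chosen with earlier results of these data known. Named genes are all members, the 2 genes of smallest p in each of the lists of serum response factor, contractile, growth factor and interstitial genes, and the 5 genes per class nearest in profile. Other list genes, and Myocd, Mael, Myl9 and the marker genes given by value, were chosen after their values were seen. Alternatives were quantile normalization, centring on array medians, a minimum mean of 6 or none, 16 added to intensities, no intensity trend, the replicate number as a block, the mean over probe sets of a gene, an adjusted p of 0.10, 1 pair of arrays with a shared number in the descriptions, and leaving out each array.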

Additional observations from a re-analysis of the deposited data

How the results depend on the processing

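No member probe set was called under any alternative run, and outside the settings that use fewer arrays no difference of the 16 changed sign. Over all probe sets, 1 was called without the intensity trend, 0 with the replicate number as a block (replicate block) and 0 to 5 with single arrays left out, against 6; the median over the member genes then stayed between -0.024 and 0.053. Dmrt1 was not called with the replicate block (limma adjusted p = 0.200) or without control replicate 3 (limma adjusted p = 0.0556), and no other call among the genes named changed. Deviations from the group means of same-numbered arrays correlated at -0.59, -0.34 and 0.14 over probe sets. For arrays with different numbers the correlations were -0.40 to 0.58. Deviations sum to 0 within each group, so these values cannot tell whether replicate numbers pair the samples. With single arrays left out, differences crossed 0 for 4 Nr2f2 probe sets (-0.21 to 0.0013, -0.11 to 0.088, -0.075 to 0.26 and -0.18 to 0.15), both of Tcf21 (-0.054 to 0.16 and -0.020 to 0.38), 3 of Pdgfra (-0.061 to 0.019, -0.19 to 0.11 and -0.14 to 0.24), both of Pdgfrb (-0.12 to 0.22 and -0.19 to 0.22), Acta2 (-0.38 to 0.018) and Tagln (-0.66 to 0.12). The same held for the markers Ddx4 (-0.40 to 0.018), Hba-x (-0.15 to 1.02), Notch3 (-0.19 to 0.0047) and Tnnt2 (-0.24 to 0.12). Null replicate 2 and control replicate 3 share a number in the descriptions whose meaning is not given. They differed by -0.51 for Tagln, -0.25 for Acta2, -0.25 for Des and -0.0050 for Myh11. For Nr2f2 the difference was -0.20 at the brightest probe set and 0.28, 0.28, 0.49 and 0.67 at 4 others. The probe sets of Tcf21, Pdgfra and Pdgfrb differed by -0.23 to 0.15. The cause of these shifts was not tested. For dim probe sets, signal close to the background limits what can be read.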
